A study of Mus musculus with 2 samples.

Results

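The genes described here are 51 mouse genes of the DNA damage response and DNA repair, a list given by gene name with no score or position in its rule. All 51 were found among the 21900 protein-coding genes of the RefSeq table for assembly GRCm38.p6, which mm10 denotes. The data are the summits of 1 ChIP-seq library made with an antibody against H3K9bhb, histone H3 carrying a β-hydroxybutyryl group on lysine 9. It was prepared from memory-like CD8+ T cells of the C57BL/6 strain. OT-I splenocytes, whose transgenic receptor recognises an ovalbumin peptide, were stimulated for 3 days with that peptide (200 ng/ml) in interleukin-2 (10 ng/ml). They were held for a further 4 days in interleukin-15 (10 ng/ml) and given β-hydroxybutyrate, the main circulating ketone body, for 3 days. An input DNA library of the same description accompanies it, and its own signal was not analysed here. The labels give 70 M reads of 150 bp in pairs for each library. Untreated cells were not analysed here, and a peak therefore says where reads piled up in treated cells, with no comparison to cells without the ketone body. With 1 ChIP library there is no replicate, no p-value is given, and nothing below measures the spread between cultures.

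Cells keep separate repair systems for different lesions. Checkpoint kinases sense broken or stalled DNA and halt the cell cycle. Homologous recombination copies a break from the sister chromatid, whereas end joining ligates it directly, a pathway that developing lymphocytes also need to assemble their antigen receptors. Mismatch repair corrects replication errors, nucleotide excision repair removes bulky lesions, and base excision repair replaces single damaged bases. The Fanconi genes act on crosslinks between strands, and translesion polymerases copy past damage. CD8+ T cells divide fast after activation, which loads these systems. H3K9bhb is a histone mark described at gene promoters when β-hydroxybutyrate is abundant.

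H3K9bhb peaks lay at 10 of the 51 repair genes, counted when a summit was inside the gene or within 5 kb of it. The genes were Atr and Trp53bp1 of the checkpoint, Bard1 and Xrcc2 of homologous recombination, Lig4 of end joining, Ercc6 of nucleotide excision repair, Parp1 and Ung of base excision repair, Fanca of the Fanconi pathway and Rev1 of translesion synthesis. None of the 3 listed mismatch repair genes had one (95% exact binomial interval 0.0 to 70.8%), too few to tell from the share of all genes. The count of 10 is a share of 19.6% (95% exact binomial interval 9.82 to 33.1, counting error only), beside 11.4% of all protein-coding genes. With a summit within 2 kb of either end of the gene it was 9 of 51 (17.6%), beside 9.4% of all genes. The interval around 19.6% includes the 11.4% of all genes and reaches 33.1%. It is too wide for this count to settle whether the list differs from all genes. Among the 50% of summits with the highest scores, 3 of 51 repair genes (5.88%) had a peak, beside 5.82% of all genes.

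The repair genes were longer than most genes, and the share of genes with a peak moves with length. Their median length was 34.3 kb, against 17.1 kb for all protein-coding genes. In the longest quartile of genes (44.3 kb and above) 6 of 22 repair genes had a peak, and 17.9% of all genes of that size did. In the next quartile, from 17.1 to 44.3 kb, it was 1 of 18 repair genes and 13.4% of all genes. In the quartile from 5.66 to 17.1 kb it was 3 of 10 repair genes and 10.0% of all genes. The 1 repair gene shorter than that, Apex1, had none. Weighted by how many repair genes fall in each quartile, the share of all genes is 14.5%. What part length has in the 19.6% was not tested.

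**Figure D1:**
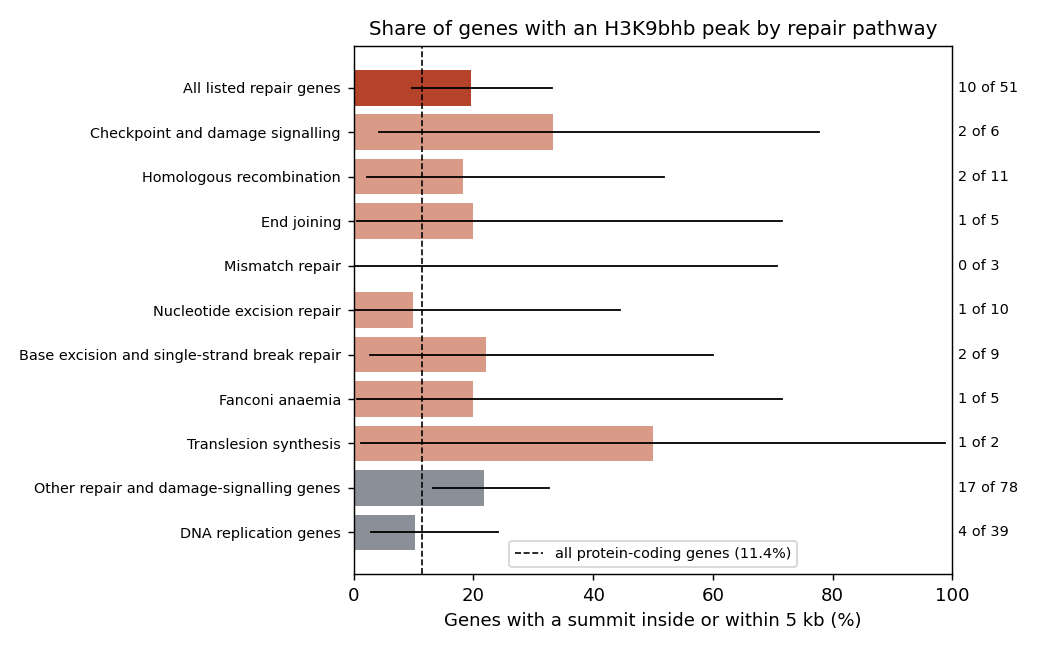
Bars give the percentage of genes with a summit inside or within 5 kb, for all 51 repair genes, for each pathway and for 2 comparison lists, black lines the 95% exact binomial intervals, and the dashed line the 11.4% of all protein-coding genes. Pathways held 0 to 2 genes with a peak each, and the interval of every pathway includes the dashed line. That of mismatch repair (0 of 3) runs from 0.0 to 70.8%.

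The annotated transcription start is known for 41 of the 51 genes from the RefSeq promoter table, and the strand with it. Of these 41, 8 (19.5%) had a summit within 500 bp of a start, beside 8.4% of the 17492 protein-coding genes in that table. None (0 of 41) had a summit within 500 bp of the transcript end, beside 0.252% of the same genes. Some members have no entry in the table, namely Rad50, Nbn, Xrcc2, Prkdc, Ercc3, Xpc, Ddb2, Polb, Fancd2 and Rev3l.

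The promoter bases of the 5 repair genes with the highest scores among those 8 are shown as examples. Only the Lig4 summit lies within the bases shown. Those of Bard1, Parp1, Ercc6 and Fanca lie past the start. Each run is the 250 bases before the start, 5′ to 3′ on the gene's own strand, from RefSeq (GRCm38.p6). Capitals mark matches on either strand to GGGCGG (GC box, bound by Sp and Klf factors), TTTCGCGC, TTTGGCGC or TTTCCCGC (E2F), CCAAT (NF-Y), CCGGAAG (ETS), TGACGT (CREB family), AAGATGGC (YY1) and the NRF1 motif. Each motif was searched separately, so matches may share bases.
Bard1 (chr1:71102973-71103222, minus strand): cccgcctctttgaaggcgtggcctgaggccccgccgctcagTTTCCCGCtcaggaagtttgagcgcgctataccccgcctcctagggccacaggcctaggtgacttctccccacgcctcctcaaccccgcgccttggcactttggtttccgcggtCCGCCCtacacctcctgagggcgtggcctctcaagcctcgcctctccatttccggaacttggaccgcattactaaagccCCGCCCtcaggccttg
Parp1 (chr1:180568641-180568890, plus strand): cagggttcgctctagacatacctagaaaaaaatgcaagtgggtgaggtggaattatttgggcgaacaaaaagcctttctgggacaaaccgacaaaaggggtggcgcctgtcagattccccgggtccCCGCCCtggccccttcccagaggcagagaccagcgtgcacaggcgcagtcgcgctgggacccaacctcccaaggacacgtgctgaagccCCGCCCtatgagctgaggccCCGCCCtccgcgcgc
Ercc6 (chr14:32513271-32513520, plus strand): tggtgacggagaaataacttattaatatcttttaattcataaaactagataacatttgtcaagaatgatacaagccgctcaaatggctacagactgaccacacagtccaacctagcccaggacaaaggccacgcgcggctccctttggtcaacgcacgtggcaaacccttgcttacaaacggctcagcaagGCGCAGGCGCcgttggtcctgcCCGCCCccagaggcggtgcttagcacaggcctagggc
Lig4 (chr8:9977681-9977930, minus strand): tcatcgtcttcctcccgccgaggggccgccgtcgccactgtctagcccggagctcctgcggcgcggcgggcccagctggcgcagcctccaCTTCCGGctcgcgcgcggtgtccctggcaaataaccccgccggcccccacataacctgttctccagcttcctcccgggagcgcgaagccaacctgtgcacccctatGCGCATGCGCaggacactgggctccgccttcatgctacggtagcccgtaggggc
Fanca (chr8:123318577-123318826, minus strand): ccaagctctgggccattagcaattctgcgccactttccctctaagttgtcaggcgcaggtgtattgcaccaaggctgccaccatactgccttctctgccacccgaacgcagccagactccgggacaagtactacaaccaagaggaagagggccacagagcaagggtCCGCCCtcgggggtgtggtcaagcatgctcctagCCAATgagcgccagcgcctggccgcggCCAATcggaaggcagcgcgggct
GC boxes stand before 4 of the 5 starts and not before Lig4, which has an ETS match and an NRF1 match instead. They are also common at repair genes without a peak, in 20 of 32 promoter windows of 300 bases. Bard1 holds an E2F match, Ercc6 an NRF1 match, and Fanca a pair of CCAAT boxes at positions -50 and -23 from its start.

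Bard1, the obligate partner of Brca1 in a ubiquitin ligase of homologous recombination, had the highest score of the repair genes. Scores are the authors' −log10 p or q at each summit, and a higher score means a pile-up less likely under the caller's local background. The Bard1 summit (chromosome 1, 71102721; gene 71027535 to 71103141) scored 7.89, a value that 19.4% of all summits reached or passed. It lay 251 bp into the transcript. Brca1 itself had no peak, and the summit closest to it was 172.41 kb away, at Psme3. Xrcc2, a recombinase paralogue of the same pathway, had a summit scoring 4.22 (chromosome 5, 25705660; gene 25689814 to 25705797), 137 bp inside its higher-coordinate end.

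The other 9 homologous recombination genes had none. Those without a peak include Brca2 and Palb2, which load the recombinase on single-stranded DNA, with the closest summit 103.737 and 39.999 kb away. The 3 genes of the complex that senses and trims broken ends, Mre11a, Rad50 and Nbn, also had no peak. Their closest summits were 32.604, 1080.185 and 12.311 kb away. Rad52 and Rad54l, which act in strand annealing and exchange, were 357.949 and 18.55 kb from one, and Xrcc3, another recombinase paralogue, 94.36 kb.

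Among checkpoint genes, Atr and Trp53bp1 had a peak. Atr, the kinase that answers stalled replication forks, had a summit 224 bp into its transcript (chromosome 9, 95857821; gene 95857597 to 95953217) with a score of 4.03. That summit also lay 61 bp into 1700065D16Rik, a gene on the opposite strand whose start overlaps that of Atr, so it cannot be given to either alone. Trp53bp1, an adaptor on damaged chromatin that favours end joining, scored 3.50 (chromosome 2, 121271302; gene 121194835 to 121296354). The Trp53bp1 summit lay 25052 bp from the nearer end of the gene span and yet 105 bp into the transcript, because the annotated start is 24947 bp inside that span. Counted by gene ends alone it would be missed, which is the difference between the counts of 10 and 9.

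The kinases Atm and Chek1 were far from any summit, 964.427 and 733.736 kb. Trp53, the transcription factor at the end of the pathway, was 89.954 kb from one. Chek2, the kinase below Atm, missed the 5 kb limit narrowly: a summit scoring 6.04 lay 5852 bp beyond it, 189 bp into the transcript of its neighbour Ttc28. No repair gene with a peak came near the limit: the farthest summit from its gene was that of Lig4, at 241 bp.

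Lig4 was the 1 end joining gene with a peak. It encodes the ligase that seals broken ends together with Xrcc4. Its summit (chromosome 8, 9977921; gene 9970020 to 9977680) scored 4.26 and lay 241 bp before its start, inside the window printed above, and 204 bp into Abhd13, which is transcribed the other way. That summit lies outside Lig4 and inside Abhd13, the gene nearest to it, so it cannot be given to Lig4 alone. Neither Xrcc4 (1717.85 kb, the greatest distance in the list) nor the Ku subunit genes Xrcc5 (750.164 kb) and Xrcc6 (176.897 kb) had a peak. Prkdc, the catalytic subunit of the kinase that Ku recruits, was 43.084 kb from a summit at Ube2v2.

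Base excision and single-strand break repair had peaks at Parp1 and Ung, 2 of 9 genes. Parp1, which senses strand breaks and builds poly(ADP-ribose), scored 5.98 with a summit 332 bp into its transcript (chromosome 1, 180569223; gene 180568891 to 180600999). Ung, the uracil glycosylase, scored 3.33 with a summit 7 bp before its start (chromosome 5, 114130428; gene 114130366 to 114139321). The span of Alkbh2, a demethylase of alkylated bases, also covers the Ung summit, 805 bp from its end. Parp2, the close relative of Parp1, was 1198.681 kb from the closest summit, and Apex1, the main abasic-site nuclease, was 1092.794 kb from the same one. Ogg1, the 8-oxoguanine glycosylase, Xrcc1, the scaffold of the pathway, and the ligase genes Lig1 and Lig3 were 249.683, 113.594, 233.103 and 66.934 kb away. Polb, the gap-filling polymerase, was 34.524 kb from a summit at Vdac3.

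Nucleotide excision repair had 1 gene of 10 with a peak, Ercc6, near the 11.4% background. Ercc6 encodes the Cockayne syndrome B protein, which couples repair to stalled transcription. It scored 5.41 with a summit 195 bp into its transcript (chromosome 14, 32513716; gene 32513291 to 32580990). The damage sensors Xpc, Ddb1 and Ddb2 had no peak, with distances of 15.911, 1239.178 and 19.735 kb. Xpa, which verifies the lesion, was 36.399 kb from one. The nuclease and helicase genes Ercc1, Ercc2, Ercc3, Ercc4 and Ercc5 were 11.036, 48.986, 77.269, 104.539 and 44.501 kb away, and the summit closest to Ercc1 and Ercc2 was the same one.

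Fanca and Rev1 complete the 10 genes. Fanca, a subunit of the Fanconi core ubiquitin ligase, scored 4.26 with a summit 55 bp into its transcript (chromosome 8, 123318521; gene 123266294 to 123318651). Fancm, Fancc, Fanci and Fancd2, which cover DNA binding, the core complex and its 2 ubiquitinated targets, were 37.555, 66.016, 142.069 and 454.351 kb from a summit. Rev1, a scaffold of translesion polymerases, had the lowest score of the 10, 2.12, which 96.3% of summits reached or passed, and its summit lay farthest in, 537 bp into the transcript (chromosome 1, 38129129; gene 38052786 to 38129921). Rev3l, the catalytic subunit of its partner polymerase, was 149.793 kb from one. The mismatch repair genes Msh3, Msh6 and Pms2 were 175.665, 75.162 and 505.972 kb away.

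**Figure D2:**
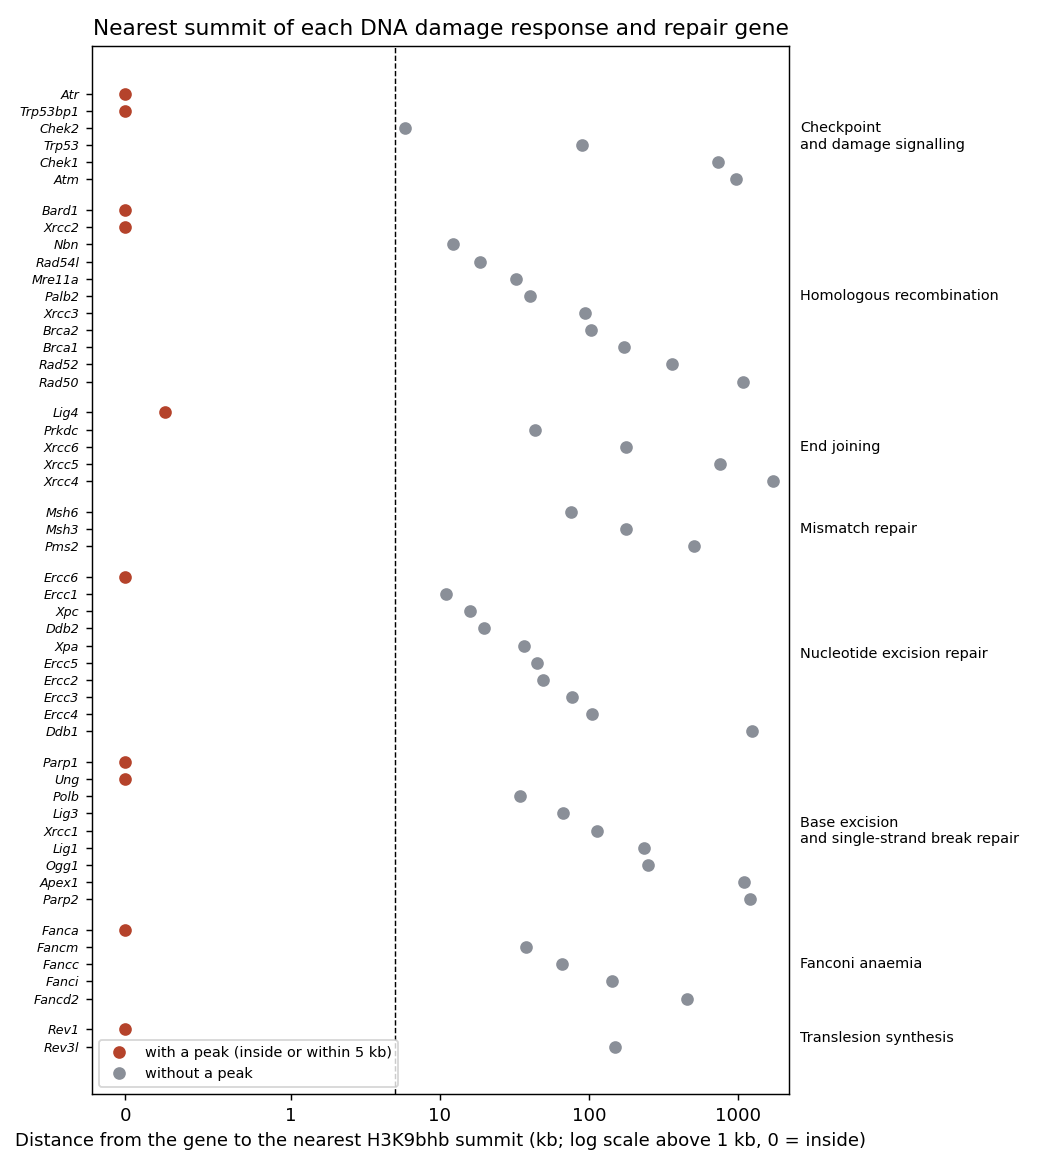
Each point is 1 of the 51 repair genes, placed by its distance to the nearest H3K9bhb summit in kb (log scale above 1 kb, 0 for a summit inside) and grouped by pathway, red with a peak and grey without. The 10 red points lie at or below 0.241 kb and the 41 grey points begin at 5.852 kb, beyond the dashed 5 kb limit.

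Scores at repair genes lay within the usual range of the list. The median over the 10 genes was 4.24, against 5.04 over all 2489 protein-coding genes with a peak, and both lie between the quartiles of all summits, 3.33 and 6.78. With the lowest in place of the highest score for genes with several summits, the median over all such genes was 4.54 and that over the 10 was the same 4.24. Of the 10, 7 scored below the median summit (5.04). Bard1, Parp1 and Ercc6 were above it. Of all 2489 protein-coding genes with a peak, 1274 had a summit at or above it. Each of the 10 genes had 1 summit. They lay on 6 chromosomes and no 2 of the genes shared a summit.

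Summits of repair genes lay mostly just downstream of the start, as did those of protein-coding genes in general. For the 9 repair genes with a peak and an annotated start, the median summit was 195 bp into the transcript and 7 of 9 (77.8%) were on the transcribed side. Over the 1606 protein-coding genes with a summit within 1 kb of a start, the median was 101 bp, quartiles were -33.0 and 222.75 bp, and 69.6% were on the transcribed side. Of the 9, Parp1, Bard1, Atr and Rev1 lay farther in than the upper quartile, and Lig4 lay farther before the start than the lower quartile. The Lig4 summit also lies 204 bp into the transcript of Abhd13.

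**Figure D3:**
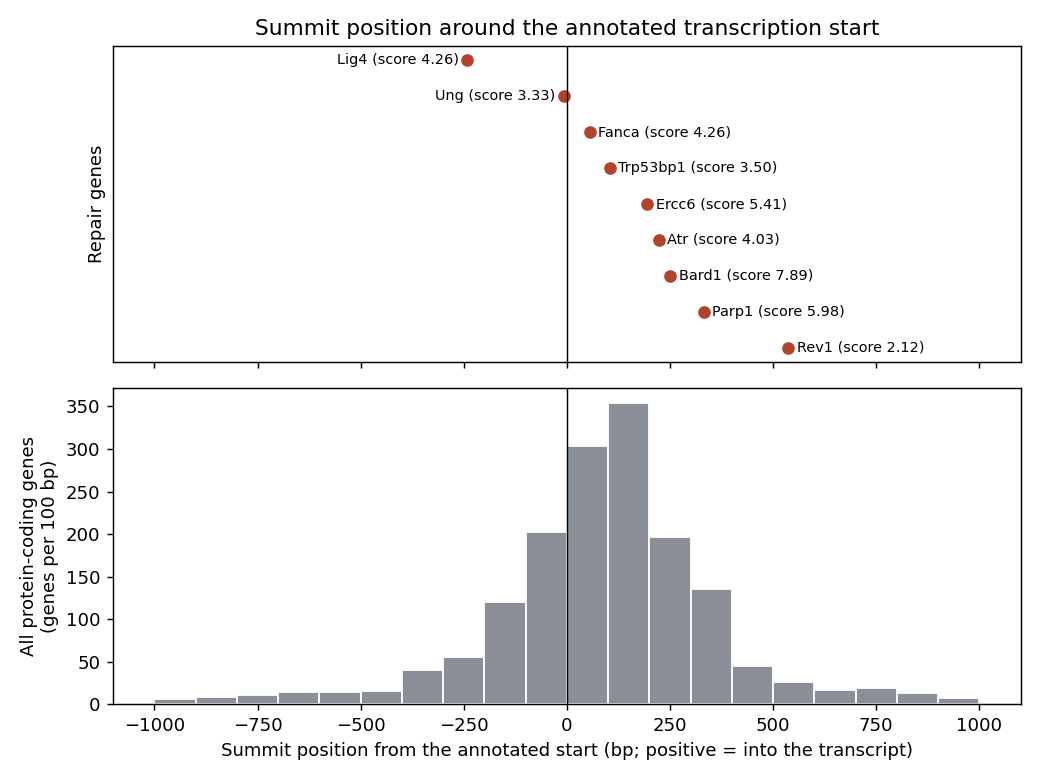
The upper panel places the summit of 9 repair genes in bp from the annotated start (positive into the transcript), with its score, and the lower panel counts all protein-coding genes with a summit within 1 kb of a start per 100 bp. Repair genes run from -241 bp (Lig4) to 537 bp (Rev1).

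Of the 41 genes without a peak, 27 were over 50 kb from any summit and 9 of these over 500 kb. A summit lay within 50 kb for 14 of 41 (34.1%), against 14.5% of all protein-coding genes without a peak. For 12 of the 14 it lay within 1 kb of an end of another gene. The matching share over all genes without a peak was not counted. Summits near gene ends are common in this library: of all 2489 protein-coding genes with a peak, 1861 had a summit within 1 kb of an end. Mre11a had its closest summit at Fut4, Nbn at Decr1, Rad54l at Lrrc41, Palb2 at Ubfd1, Xpc at Chchd4, Ddb2 at Pacsin3, Xpa at Ncbp1 and Tstd2, Ercc5 at Tex30 and Fancm at Prpf39. The median number of other protein-coding genes within 50 kb was 4 for repair genes without a peak, against 3 for all genes without a peak. What part gene density has in the 34.1% was not tested.

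Promoters of repair genes are rich in CpG, and so are those of genes with a peak in general. In the 300-base windows from 250 bases before to 50 bases after the outermost annotated start, the median CpG count was 22 over 41 repair genes and 13 over all 17492 genes. The median was 22 for the 9 repair genes with a peak and 23 for the 32 without. Over all genes it was 25 with a peak and 11 without. Windows with at least 55% GC and a CpG ratio (observed over expected) of at least 0.6 were found at 28 of 41 repair genes (68.3%), against 41.3% of all genes. Within such windows 7 of 28 repair genes (25.0%) had a peak, close to the 21.2% of all genes with such a window. Ung had the lowest CpG count of the 9, at 16, and Rev1 the highest, at 51.

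Most windows of repair genes with a peak held a GC box and few held a CCAAT box. GGGCGG stood in 8 of 9 windows of repair genes with a peak, all but Lig4, and in 20 of 32 without. Among other genes it stood in 73.1% of windows with a peak and in 42.8% of those without. CCAAT stood in 1 of 9 windows with a peak (Fanca), against 21 of 32 without, among them Atm, Brca1, Palb2, Trp53, Msh6 and Chek2. Among other genes it stood in 35.3% of windows with a peak and in 39.7% of those without, and whether the contrast differs between repair genes and other genes was not tested. E2F matches stood in 6 of 41 repair gene windows (14.6%), against 2.49% of all windows, and belonged to Bard1 with a peak and to Brca2, Chek2, Msh3, Msh6 and Xrcc6 without. NRF1 matches stood in 9 of 41 (22.0%), against 6.66% of all, and in Ercc6, Lig4 and Rev1 with a peak. TATAAA, the core promoter element, stood in 0 of 9 windows with a peak and 3 of 32 without, against 13.3% of all windows. TTTGAA (the CHR element of cell cycle genes) stood in 1 of 9 and 1 of 32, against 16.5%, and AAGATGGC in none of the 41, against 3.21%. TGACGT stood in 6 of 41 (14.6%), against 8.71%, and CCGGAAG in 8 of 41 (19.5%), against 11.9%. A match gives letters in a window and not a bound factor, and no test was made of these shares.

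**Figure D4:**
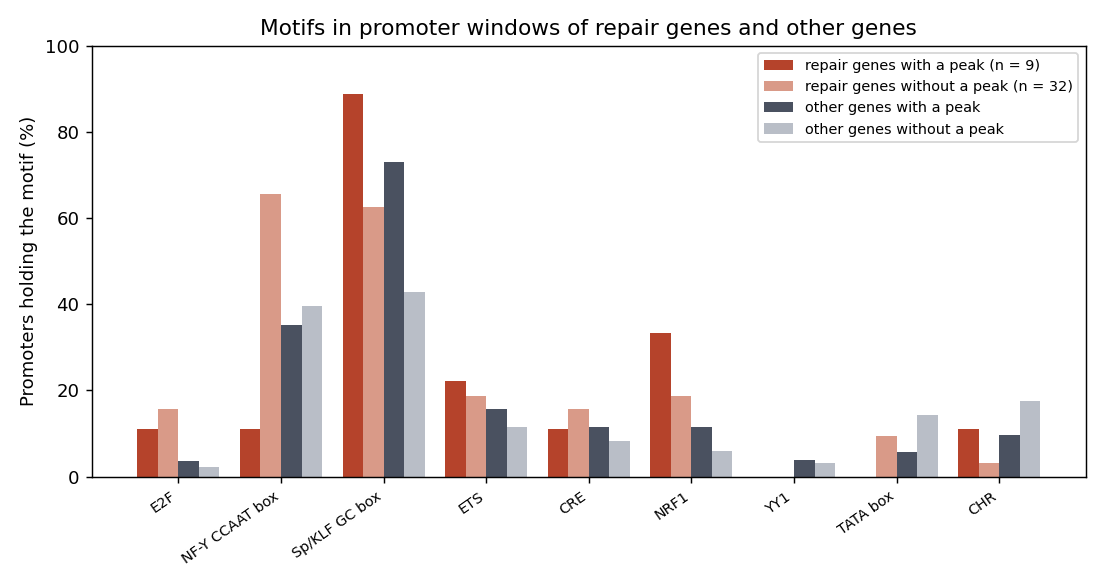
Bars give the percentage of 300-base promoter windows that hold each motif on either strand, for repair genes with a peak (9), repair genes without (32), other genes with a peak and other genes without. CCAAT stands in 11.1% of the first group and 65.6% of the second, while the GC box stands in 88.9% and 62.5%.

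A further list of repair genes was counted in the same way. Of 78 further genes of repair and damage signalling, 17 (21.8%, interval 13.2 to 32.6) had a peak, beside 11.4% of all genes, and their median score was 3.85. The count depends on the setting: it was 9 (11.5%, beside 8.71% of all genes) with summits inside genes only, 11 (14.1%, beside 9.34%) when only the gene nearest to a summit was counted, and 4 (5.13%, beside 5.82%) in the top 50% of summits. The highest were Rad51d (7.80), a recombinase paralogue whose summit lies outside the gene and 28 bp from an end of Rffl, Mdm2 (7.53), the ubiquitin ligase that degrades p53, and Gadd45a (6.37), a p53 target. Rnf168 (5.12), a ubiquitin ligase that recruits Trp53bp1 to breaks, Pms1 (4.26), a relative of the mismatch repair gene Pms2, Tdg and Smug1 (4.22 each), base excision glycosylases, followed. The 78 genes are no test of the 51, since both lists come from the same library. Alkbh2, among the 78, is also counted through the Ung summit. Of 39 DNA replication genes 4 (10.3%) had a peak: Pold3 (6.63), Orc3 (5.04), Orc1 (4.54) and Cdc7 (2.06).

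The labelled cell type could not be read from the peak list. None of 9 CD8 T cell markers (Cd3d, Cd3e, Cd3g, Cd8a, Cd8b1, Cd2, Cd5, Lck and Zap70) had a peak. None of 6 B cell and 6 myeloid markers did either. The share over all protein-coding genes was 11.4%. The 95% intervals reach 33.6% for the CD8 T cell markers and 45.9% for each of the other lists. Lists this short cannot tell an absence of peaks from that share. The list held 2315 summits of 2204 peaks, with scores from 2.01 to 1167.46.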

How the data were processed

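The deposited file is the peak list of 1 H3K9bhb ChIP library, 1 row of 1 bp per summit. The submitters' processing notes name Bowtie2 2.3.5, MACS2 2.1.2, Trimmomatic 0.39 and FastQC 0.11.8, with build mm10. For caller settings, use of the input and duplicate handling the sources used here give nothing. The authors' deposited values are −log10 p or q values (which of them is not given), used only to rank and filter summits. The depth behind 1 summit is unknown.

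Every summit was set against gene spans and promoter windows from RefSeq (GRCm38.p6). A start is base 251 of a promoter entry. Members and lists were chosen with earlier results of these data known. Named are members with a peak, members with a summit within 50 kb, other list genes with a peak (up to 10 by score) and promoters by score; further members were named after their values were seen. A planned cell type marker is not reported here. Counting functions were tested on simulated data. Flanks, end windows, score thresholds, summit choice and assignment to the nearest gene were varied. Calculations used Python 3.11.15, numpy 2.4.6, pandas 2.3.3 and scipy 1.17.1.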

Additional observations from a re-analysis of the deposited data

How the results depend on the processing

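The count of 10 repair genes with a peak was 9 (17.6%, beside 8.71% of all genes) with summits inside genes only, 10 (19.6%, beside 10.7%) with 2 kb flanks and 11 (21.6%, beside 13.0%) with 10 kb flanks, where Chek2 joins. It was 8 (15.7%, beside 9.34%) when only the gene nearest to a summit was counted, where Atr and Lig4 drop out, and 10 (beside 11.4%) with 1 summit per peak. It was 3 (5.88%, beside 5.82%) in the top 50% of summits and 0 (beside 1.27%) in the top 10%, where fewer summits were used. In the top 50%, checkpoint, end joining, Fanconi and translesion genes had 0, homologous recombination and base excision genes 1 each, other repair genes 4 and replication genes 2; in the top 10% every list with a peak had 0. Checkpoint genes numbered 1 with 2 kb windows at gene ends and 1 when only the nearest gene was counted. End joining genes numbered 0 inside genes and 0 by nearest gene. Other repair genes numbered 9 inside genes and 11 by nearest gene, since several of their summits lie just before the gene or belong to a neighbour. Among genes with a promoter entry 9 of 41 (22.0%, beside 11.6%) had a peak, and with a CpG-rich promoter 7 of 28 (25.0%, beside 21.2%), both settings chosen after seeing the data. The median score was 4.26 with 2 kb windows at gene ends. Read depth per summit is unknown, so a gene without a peak was not called at this depth and is not shown to lack the mark. No paired analysis was possible because there is 1 ChIP library.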

Other observations

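Some summits at further repair genes are shared between genes. Of the 17 such genes with a peak, 16 distinct summits account for all: Gen1, a nuclease of recombination intermediates, and Smc6, a subunit of the Smc5/6 complex, lie head to head around 1 summit scoring 3.85, at -297 bp from the Gen1 start and 218 bp into Smc6. Mdm2 was the 1 gene among the 17 with 2 summits. Alkbh3, a demethylase of alkylated bases, was counted through a summit 3910 bp outside the gene, and Orc1 through one 3918 bp outside.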
